A study of Mus musculus with 16 samples.

Results

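The 9 H3.3WT libraries of a mouse model of diffuse midline glioma separated by their level of Nlrc5, and the libraries on each side of that gap are compared here. Members were chosen by the deposited value of Nlrc5 itself: libraries of 2000 normalized counts or more were called Nlrc5-high and the others Nlrc5-low. Of 16 tumour libraries in the series 9 are H3.3WT, and of these 3 were Nlrc5-high (libraries 3, 5 and 9) and 6 Nlrc5-low (libraries 1, 2, 4, 6, 7 and 8). The split is by a measured gene and not by a treatment, so a difference says only that a gene varied with Nlrc5 among these libraries. All 3 classes used below share the same model. Avian RCAS viruses, which enter only cells with the receptor Tv-a, delivered PDGFA and Cre recombinase on postnatal day 3 to Nestin Tv-a; p53 fl/fl mice of strain C57BL/6, so that the receptor followed the Nestin promoter of neural progenitor cells and Cre removed p53. Both Nlrc5 classes also received RCAS-H3.3WT, the unmutated histone, and no drug; the tumours of the 7 H3.3K27M libraries, in which lysine 27 of H3.3 is methionine, received RCAS-H3.3K27M in its place. Tumours were taken at endpoint and bulk RNA was sequenced, so the host's vessels, glia and immune cells are in each library, and fewer cells of a type cannot be told apart from less RNA per cell.

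NLRC5 is a protein of the NOD-like receptor family that enters the nucleus and switches on MHC class I genes. It binds no DNA alone but joins the RFX proteins, CREB-type and NF-Y factors on a promoter module whose parts are called X1, X2 and Y; CIITA does the same for MHC class II genes. Class I molecules, a heavy chain with beta-2-microglobulin, show peptides cut by the immunoproteasome and pumped by TAP to CD8 T cells. Nlrc5 and most of these genes are also induced by interferon gamma, and in normal brain tissue class I levels are low.

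Nlrc5 (mm10, chromosome 8, 94472762 to 94527272) had 3389, 3426 and 5207 normalized counts, which are reads scaled to a common depth, in Nlrc5-high libraries 3, 5 and 9. The Nlrc5-low libraries ran from 315 to 820 (median 508). These values made the classes and are not tested: the nearest members to the threshold were library 3 at 3389 on the high side and library 6 at 820 on the low side. The 7 H3.3K27M libraries, which the rule did not use, held 1890.3 to 6323 with a median of 4086, and 6 of these 7 were at or above 2000.

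Promoters of class I genes are shown because the genes called below are mostly of this family and because the module read by NLRC5 lies there. The 250 bases before the annotated start come from RefSeq (GRCm38.p6, the build mm10), written in the direction of transcription. Capitals mark an X2-type motif (TGNTGAC) followed after 20 or 21 bases by ATTGG, the inverted CCAAT of a Y box, and a repeat of the kind bound by interferon regulatory factors (GAANNGAAA, also with a further A before the NN), both strands searched.
H2-K1: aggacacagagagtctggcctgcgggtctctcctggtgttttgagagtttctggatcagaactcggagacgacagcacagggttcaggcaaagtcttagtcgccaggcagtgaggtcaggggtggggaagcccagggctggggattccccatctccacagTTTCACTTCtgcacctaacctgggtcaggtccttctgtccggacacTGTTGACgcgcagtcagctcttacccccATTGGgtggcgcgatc
H2-Q6: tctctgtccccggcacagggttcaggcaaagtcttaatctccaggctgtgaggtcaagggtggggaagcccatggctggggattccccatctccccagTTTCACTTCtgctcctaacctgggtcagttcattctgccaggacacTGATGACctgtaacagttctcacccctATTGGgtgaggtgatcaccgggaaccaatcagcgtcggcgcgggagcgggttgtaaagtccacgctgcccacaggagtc
B2m: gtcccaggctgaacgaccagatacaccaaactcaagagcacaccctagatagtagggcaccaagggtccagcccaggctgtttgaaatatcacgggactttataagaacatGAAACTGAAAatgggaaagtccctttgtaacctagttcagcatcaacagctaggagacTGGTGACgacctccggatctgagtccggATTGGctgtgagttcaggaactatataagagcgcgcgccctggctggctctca
H2-T22: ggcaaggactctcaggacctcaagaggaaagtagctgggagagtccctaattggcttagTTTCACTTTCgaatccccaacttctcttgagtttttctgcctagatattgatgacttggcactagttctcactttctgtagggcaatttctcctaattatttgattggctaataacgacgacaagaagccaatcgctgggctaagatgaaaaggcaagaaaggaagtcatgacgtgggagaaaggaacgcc
Igtp: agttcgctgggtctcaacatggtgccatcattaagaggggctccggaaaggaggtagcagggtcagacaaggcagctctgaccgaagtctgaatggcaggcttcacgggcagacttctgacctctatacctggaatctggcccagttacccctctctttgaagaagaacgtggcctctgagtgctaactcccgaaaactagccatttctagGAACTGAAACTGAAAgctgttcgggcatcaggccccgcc

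The H2-K1 window is chr17:34000348-34000597 on the minus strand, H2-Q6 chr17:35424600-35424849 on the plus strand and B2m chr2:122147437-122147686 on the plus strand. H2-T22 is chr17:36042743-36042992 on the minus strand and the interferon-induced GTPase gene Igtp, shown for contrast, chr11:58199306-58199555 on the plus strand. The spacing was chosen after reading these promoters, so its presence in them is a description. The spaced X2-type and ATTGG pair was found in 21 of 32851 such windows (0.0639%), the interferon repeat in 8.82% and the X2-type motif alone in 11.7%. The pair was present in H2-K1, H2-D1, H2-Q4, H2-Q6, H2-Q7 and B2m, each of which also holds an interferon repeat upstream of it; in H2-T22 and Igtp these letters were not in the window in that spacing. Of 14 tested genes with the pair, 7 were B2m or MHC class I genes, and the other 7 had a median log2 difference of -0.08 between the Nlrc5 classes. H2-M3, a class I gene, also holds the pair and an interferon repeat, and its log2 difference was 1.24 (limma adjusted p = 0.883). Tap1 and Psmb9 hold neither the pair nor the repeat in their windows, and H2-Q5 and H2-T10 are named only.

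Depth, sex and the state of the libraries bear on what follows. Library 8, which is Nlrc5-low, held 11439144 reads; the other 15 held 30377560 to 41730692. Xist, a transcript of female cells, was higher than Ddx3y of the Y chromosome in 1 of 3 Nlrc5-high (library 5), 5 of 6 Nlrc5-low (all but library 6) and 3 of 7 H3.3K27M libraries, so sex was unevenly spread over the split. Oligodendrocyte progenitor markers, the cell identity of this glioma model, were all measured (15 of 15 tested), and their summed level was 446692 to 472656 in the Nlrc5-high, 229745 to 629075 in the Nlrc5-low and 337017 to 744350.0 in the H3.3K27M libraries. The design text counts 3 tumours without and 5 with H3.3K27M, fewer than the 9 and 7 labelled libraries, so some libraries may share a tumour. P-values then measure only the spread between libraries and may be too small.

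**Figure D1:**
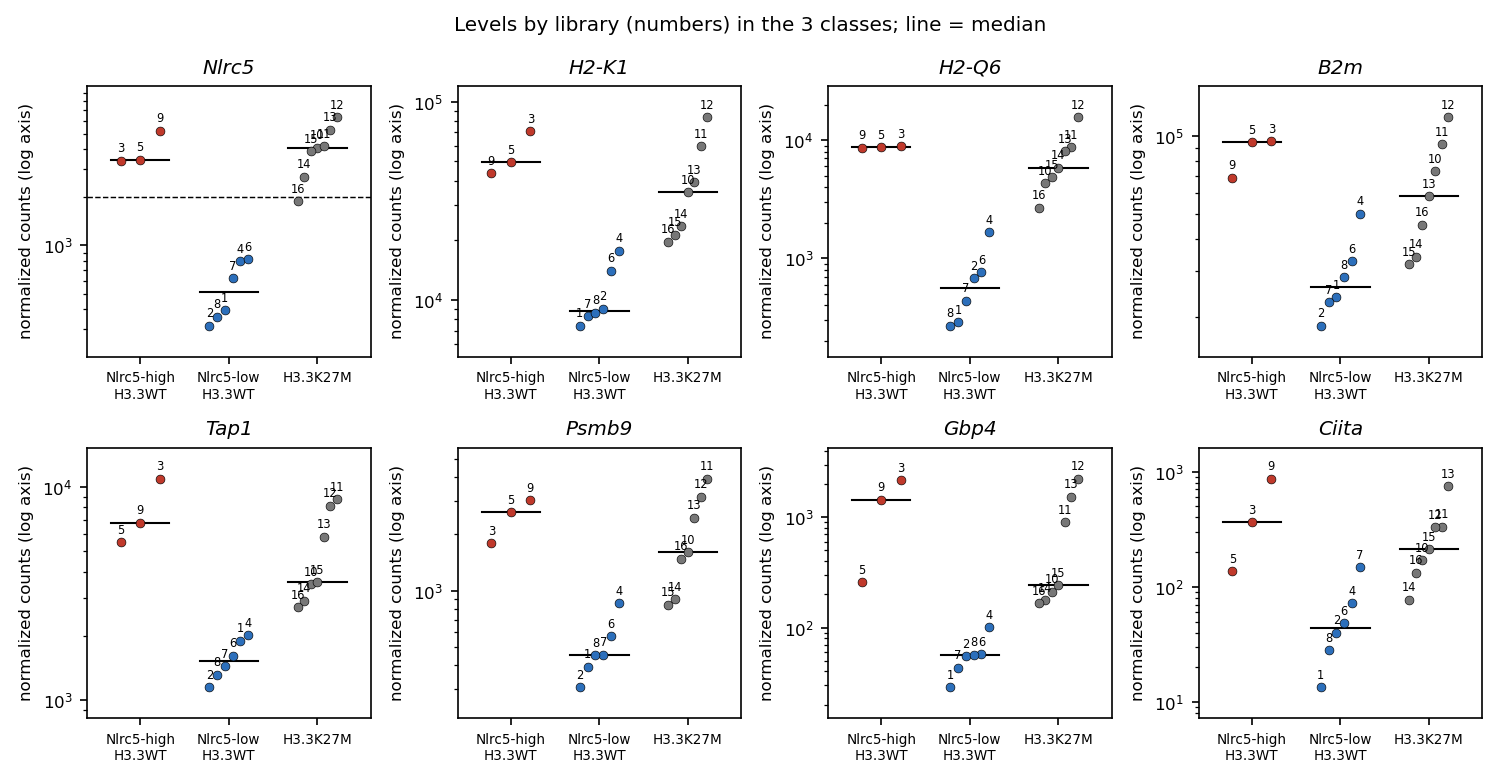
Normalized counts (log axis) of 8 genes in each library, numbered, with Nlrc5-high H3.3WT left, Nlrc5-low H3.3WT in the middle and H3.3K27M right; horizontal lines are class medians and the dashed line is the threshold of 2000 for Nlrc5. H2-K1, H2-Q6, B2m, Tap1, Psmb9 and Gbp4 in all 3 Nlrc5-high libraries lay above all 6 Nlrc5-low libraries, whereas Ciita overlapped.

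In the main limma fit the genes called were those of antigen presentation by MHC class I. Of 15006 genes tested besides Nlrc5, 9 rose in Nlrc5-high libraries (0.06% of genes) and 0 fell, by limma with Benjamini-Hochberg adjustment at 0.05. At an unadjusted p under 0.05 stood 255 higher (1.7%) and 226 lower genes (1.51%), together 3.21%. All 9 belong to the class I pathway: the heavy chain genes H2-K1, H2-Q4, H2-Q5, H2-Q6, H2-Q7, H2-T10 and H2-T22, the peptide transporter gene Tap1 and the immunoproteasome gene Psmb9. On whole reads edgeR's quasi-likelihood test called 12 genes higher (0.08%) and 0 lower, the 3 added being the GTPase genes Igtp, Gbp3 and Gbp4. DESeq2's Wald test called 55 higher (0.367%) and 15 lower genes (0.1%). Among the 55 were 9 listed class I chain genes, 4 peptide supply genes and 11 GTPase genes. Each tool's calls included the same 9 genes. Where 0 members of a list are said below to have passed with no tool named, limma, edgeR and DESeq2 each called 0.

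With 3 against 6 libraries the calls rest on single libraries. Leaving out library 1, 2, 3, 7 or 9, leaving out libraries 6 and 8 together, or taking Xist as a covariate left 0 genes called higher. Without library 6 or without library 8, 4 genes were called, all of the 9; without library 5, 4 genes were called, of which 1 was of the 9. Without library 4 the count was 14, the 9 included. The log2 differences of the 9 genes stayed between 1.49 and 4.29 in the alternatives that kept the split. The within-sex log2 differences of the 9 genes were 1.52 to 4.06 in females, with 1 Nlrc5-high and 5 Nlrc5-low libraries, and 1.84 to 3.51 in males, with 2 and 1. Their sign was fixed by the choice of genes, since in all 9 every Nlrc5-high library lay above every Nlrc5-low library; the part of sex cannot be told apart at these numbers.

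**Figure D2:**
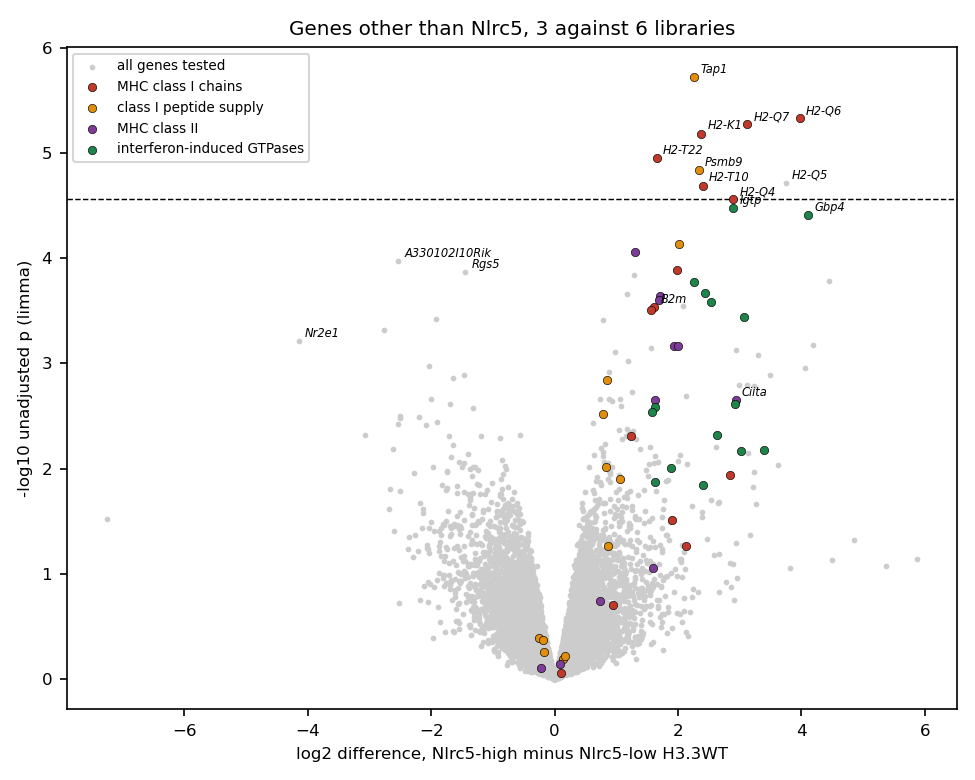
Log2 difference of each gene, Nlrc5-high minus Nlrc5-low H3.3WT (x axis), against the -log10 unadjusted limma p (y axis), 3 against 6 libraries; the dashed line is the largest p that passed adjustment. Class I chains (red), peptide supply (orange), class II (purple) and interferon-induced GTPases (green) lie mostly on the right; 9 genes there reach the line, none of them class II or GTPase genes, and 0 on the left do.

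Classical class I heavy chains, which show peptides to CD8 T cells, were led by H2-K1 (chromosome 17). It had 70903, 49633 and 43700.0 normalized counts in Nlrc5-high libraries 3, 5 and 9, against 7428 to 17724 with a median of 8839 in the Nlrc5-low libraries, a log2 difference of 2.38 ± 0.30 (SE, limma adjusted p = 0.0246). Its mean was 54745 ± 14304 in Nlrc5-high and 10862 ± 4106 in Nlrc5-low libraries (SD, n = 3 and 6). All 3 Nlrc5-high libraries lay above library 4, the highest Nlrc5-low library. H2-D1, the second classical heavy chain, had 92842, 57251 and 42875 in Nlrc5-high libraries, against 10337 to 30822 with a median of 14171, a log2 difference of 1.99 ± 0.35 that missed the threshold (limma adjusted p = 0.127) although the classes did not overlap. B2m, the light chain shared by all class I molecules (chromosome 2), had 95295, 94969 and 69076 in Nlrc5-high libraries, against 18495 to 50139.7 with a median of 26164. Its log2 difference was 1.62 ± 0.32 (limma adjusted p = 0.168), again without overlap and without passing by limma. DESeq2's Wald test called both H2-D1 and B2m higher.

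Among the non-classical Q region genes the differences were wider. H2-Q6 was even across Nlrc5-high libraries, at 8854, 8686 and 8604, against 269.9 to 1669 with a median of 557 in Nlrc5-low libraries (3.97 ± 0.49, limma adjusted p = 0.0246). H2-Q7, a gene of the Qa-2 antigen, had 6973, 9576 and 7849, against 500.1 to 2114 with a median of 907 (3.12 ± 0.39, limma adjusted p = 0.0246). H2-Q4 had 19139.6, 11304 and 7023, against 631 to 2977 with a median of 1674 (2.89 ± 0.43, limma adjusted p = 0.0461). In each of these the Nlrc5-low library 4 was the highest of its class. H2-Q5 had 1156, 1079.8 and 1197, against 39.8 to 250.02 with a median of 63.8 (3.75 ± 0.54, limma adjusted p = 0.0385). The Q genes are near-identical copies among which 50 bp reads can be split, so how much each contributes is uncertain.

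T region genes differed by less than those of the Q region. H2-T22, a ligand of some gamma delta T cells, had 3979, 3211 and 3276, against 844 to 1639.5 with a median of 1068 (1.66 ± 0.22, limma adjusted p = 0.0335), and H2-T10, its close relative, 1415, 1048 and 1070.5, against 139 to 318 with a median of 239.6 (2.40 ± 0.35, limma adjusted p = 0.0385). H2-T23, which encodes Qa-1, the ligand of an inhibitory receptor on NK cells, had 2697, 1142 and 1250.4, against 384 to 693 with a median of 532 (1.56 ± 0.31, limma adjusted p = 0.174). H2-M3, which presents formylated peptides, had 1006, 799 and 815, against 213 to 642 with a median of 357, with a log2 difference of 1.24 ± 0.36 and an adjusted limma p of 0.883. Of 17 listed class I chain genes 16 were found and 15 tested (H2-Q1 stayed below the filter), 6 rose and 0 fell by limma and by edgeR. DESeq2's Wald test called 9 higher, adding H2-D1, B2m and H2-T23. All 15 had positive differences with a median of 1.99, against a median of -0.01 and 48.8% positive over all genes tested. In 11 of the 15 all Nlrc5-high libraries lay above all Nlrc5-low libraries, which held for 1.03% of genes tested.

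Peptide supply genes were higher in part. Tap1, a subunit of the transporter that carries peptides into the endoplasmic reticulum, had 10912, 5512 and 6789 normalized counts in Nlrc5-high libraries 3, 5 and 9, against 1149 to 2008 with a median of 1527 in Nlrc5-low libraries (2.27 ± 0.26, limma adjusted p = 0.0246). Its partner Tap2 had 2717, 2243 and 1771, against 1017 to 1393 with a median of 1230.1, a smaller log2 difference of 0.85 ± 0.20 (limma adjusted p = 0.465). Psmb9, an interferon-induced catalytic subunit of the immunoproteasome, had 1790.2, 2609 and 3039.7, against 307 to 857 with a median of 454 (2.33 ± 0.32, limma adjusted p = 0.0365). Psmb8, encoded on the other side of Tap1, had 7023, 7072 and 7420.3, against 825 to 2980.0 with a median of 1830.1 (2.01 ± 0.33, limma adjusted p = 0.0916). Psmb10, the remaining inducible subunit, had 3523, 3282 and 3280.3, against 1449 to 2560.1 with a median of 2036 (0.79 ± 0.21). In these 5 genes all Nlrc5-high libraries lay above all Nlrc5-low libraries. Erap1, which trims peptides, overlapped with 2332, 1228 and 1793, against 438 to 1942 with a median of 937, and so did the chaperone Calr with 27595, 27359 and 32049, against 21716 to 49364 with a median of 36338. Of 13 peptide supply genes, all tested, 2 rose and 0 fell by limma and by edgeR. DESeq2's Wald test called 4 higher, adding Tap2 and Psmb8. Positive differences were seen in 10, and the median was 0.83. In 6 the classes did not overlap, as held in this direction for 1.03% of genes tested.

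The 9 genes that rose all lie on chromosome 17 between 33996011 and 36121444 (mm10), the MHC, so its other genes were examined, an interval set by the calls themselves. Of 101 tested genes inside it 26 were class I, class II or peptide supply genes, of which 24 had positive differences with a median of 1.96. The other 75 had a median of -0.09; 27 were positive, 0 passed by limma, and in 0 did all Nlrc5-high libraries exceed all Nlrc5-low libraries. Brd2, which encodes a bromodomain protein and lies between class II genes, had the 1 unadjusted p under 0.05 among them, with 17853, 12756 and 15183 in Nlrc5-high libraries, against 8106 to 13428 with a median of 10719.9 (0.52 ± 0.21, limma adjusted p = 0.998); it was picked after its value was seen.

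**Figure D3:**
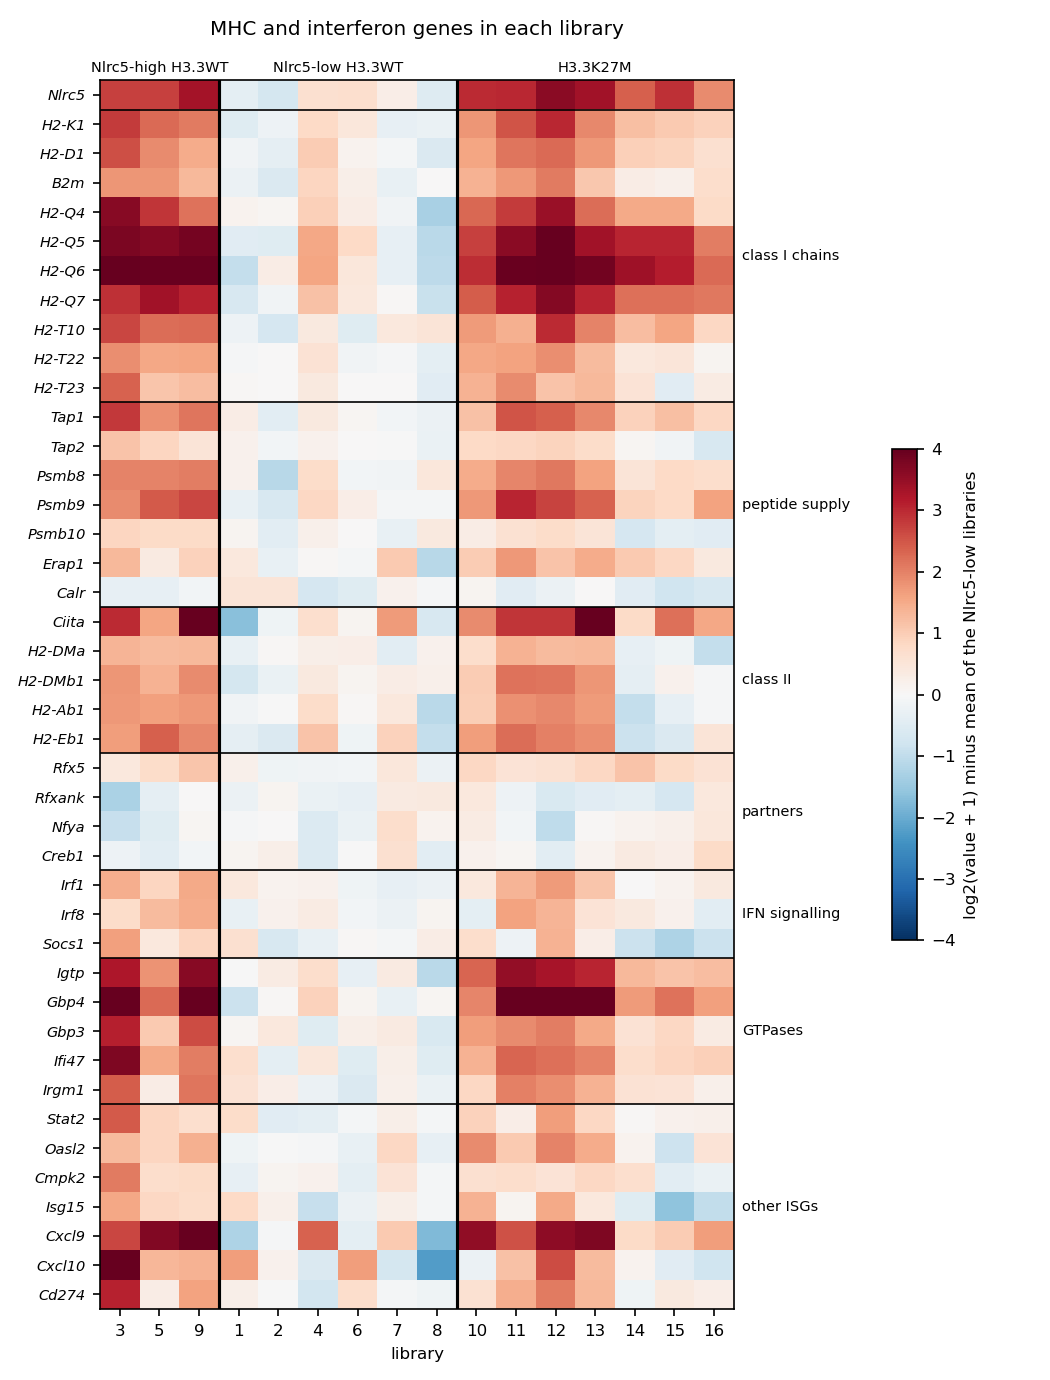
Colour shows log2(value + 1) minus the mean of the 6 Nlrc5-low libraries for each gene (rows) in each library (columns, Nlrc5-high H3.3WT left, Nlrc5-low H3.3WT in the middle, H3.3K27M right), on a scale from -4 to 4. Class I genes are raised in libraries 3, 5 and 9, and GTPase genes are raised less in library 5 than in 3 and 9.

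MHC class II genes, whose products show peptides to CD4 T cells, are known mainly from microglia, macrophages and dendritic cells. They lay higher too, without a call in the main limma fit. H2-Ab1, a class II beta chain, had 10441, 9942 and 10605 normalized counts in Nlrc5-high libraries 3, 5 and 9, against 1512 to 5288 with a median of 3201 in Nlrc5-low libraries, a log2 difference of 1.70 ± 0.32 (limma adjusted p = 0.155). H2-DMa, a chain of the peptide editor of class II, had 2216, 2057 and 2137, against 649 to 1039.5 with a median of 927 (1.31 ± 0.22, limma adjusted p = 0.1). H2-DMb1, its partner chain, had 835, 634 and 915, against 148 to 317 with a median of 271, and H2-Eb1 5777, 9428 and 6821, against 929 to 3959.8 with a median of 1500.4. These 4 did not overlap between the classes. Ciita, the transactivator of class II and the closest counterpart of Nlrc5, had 364, 136 and 866, against 13.5 to 148 with a median of 44.3 (2.93 ± 0.75, limma adjusted p = 0.578). Its lowest high library, 5, lay just below library 7, the highest of the low class. Of 12 class II genes 11 were tested (H2-Eb2 was below the filter). In the main limma fit 0 passed, and 10 had positive differences with a median of 1.62. In 6 the classes did not overlap, as held in this direction for 1.03% of genes tested. DESeq2's Wald test called 6 of the 11 higher. With voom weights limma called H2-DMa. The slope on log2 Nlrc5 across the 9 H3.3WT libraries called H2-Aa and H2-Ab1.

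The DNA-binding partners that NLRC5 needs held no call. Rfx5, the RFX subunit that contacts DNA, had 745, 939.9 and 1203 in Nlrc5-high libraries, against 480.2 to 773 with a median of 514, a log2 difference of 0.75 ± 0.26 (limma adjusted p = 0.998). Rfxank, another RFX subunit, had 192, 363 and 465.8, against 366 to 602 with a median of 447, and the NF-Y subunit gene Nfya 1373, 1838 and 2756, against 1783 to 4227 with a median of 2546. Creb1, an X2-binding factor, had 2251, 1917 and 2371, against 1779.7 to 3978 with a median of 2642. Of the 8 partner genes tested 0 passed, 2 had positive differences and the median was -0.14. Of 14 other NOD-like receptor genes 10 were tested, of which 0 passed and 6 were positive (median 0.06). Nod2, a sensor of bacterial cell wall, had the smallest p among them, with 142, 93.9 and 86.4, against 22.9 to 100.1 with a median of 45.0 (limma adjusted p = 0.998). Herpud1 and Cpne2, the coding neighbours on either side of Nlrc5 on chromosome 8, had log2 differences of -0.03 and 0.30 (limma adjusted p = 0.998 each).

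Interferon gamma itself was barely read. Ifng had 0.893, 1.84 and 9.25 normalized counts in Nlrc5-high libraries 3, 5 and 9, and 0 in 4 of 6 Nlrc5-low libraries with at most 4.34, which is too few for a test. Genes of its receptor signalling lay higher in part. Irf1, an interferon-induced transcription factor gene, had 4410.2, 2958 and 4627, against 1292 to 2146 with a median of 1607 (1.28 ± 0.23, limma adjusted p = 0.127). Irf8, an interferon regulatory factor that microglia and macrophages also need, had 3708, 5379.9 and 6281, against 1829.5 to 2786 with a median of 2246 (1.17 ± 0.22, limma adjusted p = 0.155). Irf1 and Irf8 did not overlap between the classes, while Socs1, the feedback inhibitor, did with 654, 281 and 374, against 133 to 326 with a median of 206. Of 11 listed genes 10 were tested: 0 passed by limma and 2, Irf1 and Irf8, by DESeq2; 7 were positive and the median was 0.58.

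Interferon-induced GTPases, which attack vacuoles of intracellular microbes and are read here as interferon gamma targets, had the highest median of the 33 gene lists. Igtp had 10788, 3929 and 14264 in Nlrc5-high libraries 3, 5 and 9, against 543 to 1854 with a median of 1281 in Nlrc5-low libraries, a log2 difference of 2.90 ± 0.44 that narrowly missed the threshold (limma adjusted p = 0.0504). Gbp4, a guanylate-binding protein gene, had 2181, 258 and 1441, against 28.9 to 101 with a median of 56.1 (4.10 ± 0.64, limma adjusted p = 0.0536). Library 5 stood well below 3 and 9 in both, yet above every Nlrc5-low library. Gbp3 had 10976, 2578 and 7723, against 821 to 1686 with a median of 1400.1 (2.26 ± 0.41, limma adjusted p = 0.132), and Ifi47, an immunity-related GTPase gene, 6896, 1498 and 2169.7, against 372 to 827 with a median of 505 (2.43 ± 0.46, limma adjusted p = 0.155). Irgm1, an immunity-related GTPase gene, had 30164, 6840.0 and 24621, against 3763 to 8421 with a median of 5575, so library 5 lay inside the Nlrc5-low range. Of 18 listed GTPases 15 were tested: 0 passed in the main limma fit, 3 by edgeR and 11 by DESeq2. The slope on log2 Nlrc5 across the 9 H3.3WT libraries called Igtp. All 15 were positive with a median of 2.53. In 8 the classes did not overlap, as held in this direction for 1.03% of genes tested.

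The 3 Nlrc5-high libraries thus differed among themselves in this group. Library 5 was the lowest of the 3 in 15 of 15 GTPase genes, and its median log2 excess over the mean of the Nlrc5-low libraries was 1.03, against 3.45 in library 3 and 3.00 in library 9. For class I chains library 5 was lowest in 6 of 15 genes, with a median excess of 1.77, and libraries 3 and 9 had 2.49 and 2.08. Library 5 is the female library of the 3, and the 1 male Nlrc5-low library, 6, held 902 for Igtp and 57.0 for Gbp4, inside the range of its class; the part of sex in this spread was not tested. Without library 5 the GTPase list median was 3.38.

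Genes known from type I interferon responses were positive throughout the list and mostly highest in library 3. All 30 type I interferon-stimulated genes had positive differences with a median of 0.90. In 2 the classes did not overlap, as held in this direction for 1.03% of genes tested. By limma 0 passed, and 3 (Oasl2, Parp14 and Helz2) passed by DESeq2. Library 3 was the highest of the Nlrc5-high libraries in 24 of 30, with a median log2 excess of 1.85, against 0.40 in library 5 and 0.55 in library 9. Without library 3 the list median was 0.50. Oasl2, an antiviral gene, had 2892, 2188 and 3218, against 946 to 2123 with a median of 1119 (1.19 ± 0.27, limma adjusted p = 0.361), without overlap. Cmpk2, a mitochondrial nucleotide kinase gene, had 4031, 1550.3 and 1627, against 724 to 1396 with a median of 964 (1.18 ± 0.33, limma adjusted p = 0.849), also apart. Isg15, the ubiquitin-like modifier, overlapped with 2759, 1676 and 1545, against 492 to 1623 with a median of 979.5, as did Stat2, a signal carrier of the type I receptor, with 8748, 2875 and 2542, against 1169.7 to 2634 with a median of 1515. Helz2 and Parp14, further interferon-stimulated genes, had log2 differences of 1.55 ± 0.47 and 1.62 ± 0.50 (limma adjusted p = 0.998 and 0.998). Of 12 listed type I interferon and receptor genes only 5 passed the filter on low values. Ifnb1 held at most 4.60 in the Nlrc5-high and 8.12 in the Nlrc5-low libraries. Ifna2 held 15.4 in Nlrc5-high library 9 and 0 in every other H3.3WT library. Both were below the filter and were not tested. Sensors of foreign nucleic acid were positive in 11 of 14 genes tested (median 0.58, 0 passed), with the RNA sensor gene Ifih1 at 3163, 817 and 1075, against 267 to 1096 with a median of 424, and the Z-form sensor gene Zbp1 at 448, 197 and 859.7, against 78.4 to 327 with a median of 131.

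Chemokines split by library. Cxcl9, an interferon gamma-induced attractant of T cells, had 205, 414 and 559 in Nlrc5-high libraries 3, 5 and 9, against 8.52 to 166 with a median of 27.04 in Nlrc5-low libraries, a log2 difference of 3.50 ± 0.83 without overlap (limma adjusted p = 0.433). Cxcl10, which shares its receptor, had 29617, 549.6 and 569.7, against 45.5 to 699.7 with a median of 197, so libraries 5 and 9 lay inside the Nlrc5-low range. Ccl5 had 1592, 536 and 313, against 129.8 to 634 with a median of 294. Of 13 chemokine genes tested, 0 passed by limma and 1, Cxcl9, by DESeq2; 11 were positive and the median was 0.71, or 0.24 without library 5 and 1.78 without library 9. The checkpoint ligand gene Cd274, encoding PD-L1, had 1909.8, 279 and 696, against 136 to 369 with a median of 219.7 (1.67 ± 0.53, limma adjusted p = 0.998), with library 3 the highest again. Its list of 14 tested checkpoint genes had 8 positive members and a median of 0.13; limma called 0 and DESeq2 1, Cd274.

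**Figure D4:**
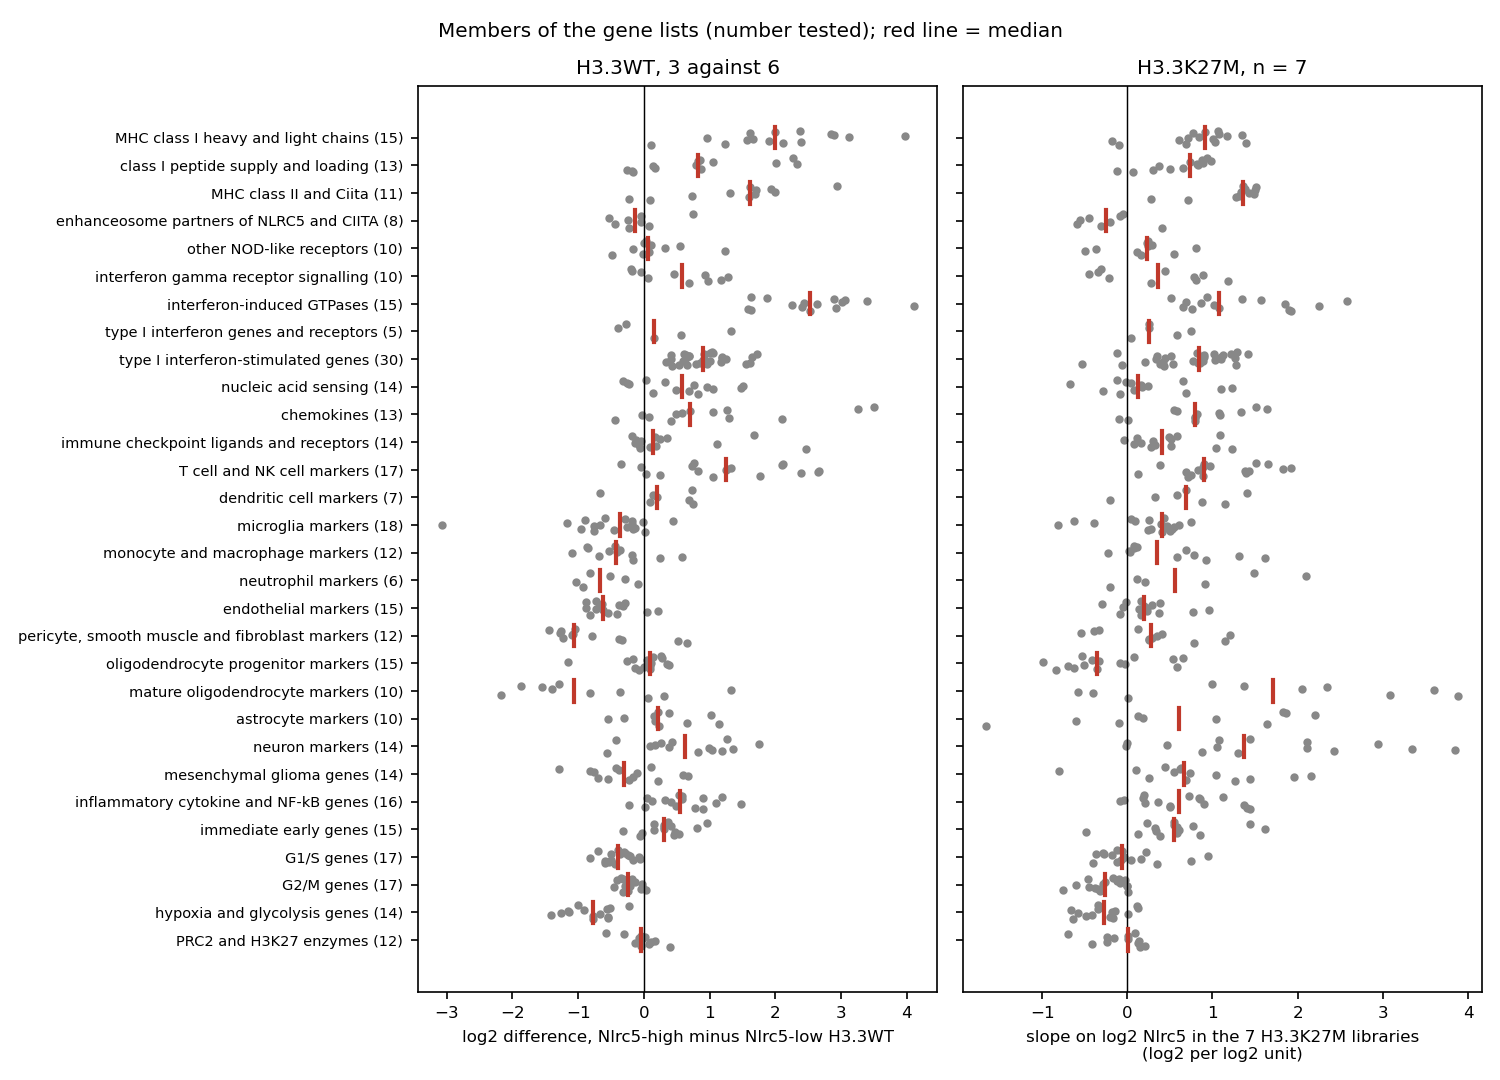
Each point is a gene of a list (rows, number tested in brackets) and the red line the list median. Left, log2 difference, Nlrc5-high minus Nlrc5-low H3.3WT; right, slope on log2 Nlrc5 across the 7 H3.3K27M libraries. Class I chains (medians 1.99 and 0.91), class II (1.62 and 1.35) and GTPases (2.53 and 1.08) lay to the right in both.

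T and NK cell transcripts were sparse and were higher in sum in Nlrc5-high libraries. The summed level of 26 T and NK cell markers was 701 to 732 in the Nlrc5-high, 223 to 549.9 in the Nlrc5-low and 236 to 787 in the H3.3K27M libraries, so all 3 Nlrc5-high libraries exceeded all 6 Nlrc5-low libraries. Cd3e, a chain of the T cell receptor complex that defines T cells, did not follow: it had 5.36, 15.7 and 6.17 in Nlrc5-high, against 0 to 22.7 with a median of 8.54 in Nlrc5-low libraries, and was below the filter. Cd8a, the coreceptor for class I, had 33.9, 30.4 and 42.2, against 0 to 47.3 with a median of 8.09, with Nlrc5-low library 4 the highest of all 9 (2.10 ± 1.01, limma adjusted p = 0.998). Gzma, a granzyme gene, had 22.3, 32.2 and 21.6, against 0 to 13.3 with a median of 5.06 (2.66 ± 0.99, limma adjusted p = 0.998), and Il2rb, the interleukin receptor chain of NK and activated T cells, 118, 53.4 and 81.2, against 5.68 to 48.7 with a median of 25.01. Lck, the T cell kinase, had 222, 92.1 and 153, against 42.4 to 131 with a median of 53.3. None of the 26 was at 0 in all 9 libraries, and 17 passed the filter on low values. Of these 0 passed the test and 15 were positive. In 4 the classes did not overlap, as held in this direction for 1.03% of genes tested. The part of these cells in the class I difference was not tested.

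Microglia and macrophages, which carry much of the class II in brain, had mostly lower marker levels in Nlrc5-high libraries, without a call by limma; DESeq2 called Fcrls lower. Of 18 microglia markers 2 had positive differences, 0 passed by limma and the median was -0.37; their sum was 27117 to 33366 in the Nlrc5-high, 23122 to 52490.3 in the Nlrc5-low and 24741 to 40800.1 in the H3.3K27M libraries. P2ry12, a homeostatic microglia receptor gene, had 329.6, 220.0 and 277 in Nlrc5-high, against 148 to 769.9 with a median of 333 in Nlrc5-low libraries, and Cx3cr1, the fractalkine receptor gene, 864, 678 and 1138, against 647 to 2532 with a median of 1898. Fcrls, a further microglia gene, had 16.1, 228 and 150.1, against 187 to 2103 with a median of 905 (-3.08 ± 0.88, limma adjusted p = 0.883). Trem2 had 786, 405 and 565, against 549 to 1839.8 with a median of 1146. Of 12 monocyte and macrophage markers 2 were positive, with 0 calls and a median of -0.42, and Cd68, a lysosomal protein gene of phagocytes, had 1043, 666 and 1114, against 958 to 2563 with a median of 1661. Ptprc, the pan-leukocyte gene encoding CD45, differed by 0.02 ± 0.39 on the log2 scale, a sign that turned in several alternatives.

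Vessel-associated genes lay mostly lower in Nlrc5-high libraries, in sum only in libraries 3 and 9, without a call by limma. DESeq2 called Rgs5 and Myl9 lower, and the slope on log2 Nlrc5 across the 9 H3.3WT libraries called Myl9. Endothelial sums were 17976, 36336.5 and 12446 in libraries 3, 5 and 9, against 27279 to 40592 in Nlrc5-low libraries. Sums of pericyte, smooth muscle and fibroblast markers were 5883, 19270 and 6745, against 12001 to 32684. Cdh5, an endothelial gene, had 668, 2389 and 413, against 1104 to 1948 with a median of 1605. Rgs5, a pericyte gene, had 1898, 2585 and 2018 normalized counts in Nlrc5-high libraries 3, 5 and 9, against 4184 to 9847 with a median of 5784 in Nlrc5-low libraries, a log2 difference of -1.45 ± 0.26 (limma adjusted p = 0.127) with no overlap. Myl9, a myosin light chain gene of smooth muscle, had 504, 647 and 194, against 1186 to 2280.4 with a median of 1296 (-1.93 ± 0.39, limma adjusted p = 0.193). Abcc9, a pericyte channel gene, overlapped, at 515, 1619 and 357, against 581 to 2619 with a median of 1936. Of 12 pericyte, smooth muscle and fibroblast markers tested 0 passed by limma, 10 were negative and the median was -1.07, which became -0.08 with Xist as a covariate. Endothelial markers were negative in 13 of 15 (median -0.62, 0 passed), and -0.02 was their median with that covariate. Mature oligodendrocyte markers were negative in 7 of 10 (median -1.06, 0 passed), and -2.74 was their median with it.

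**Figure D5:**
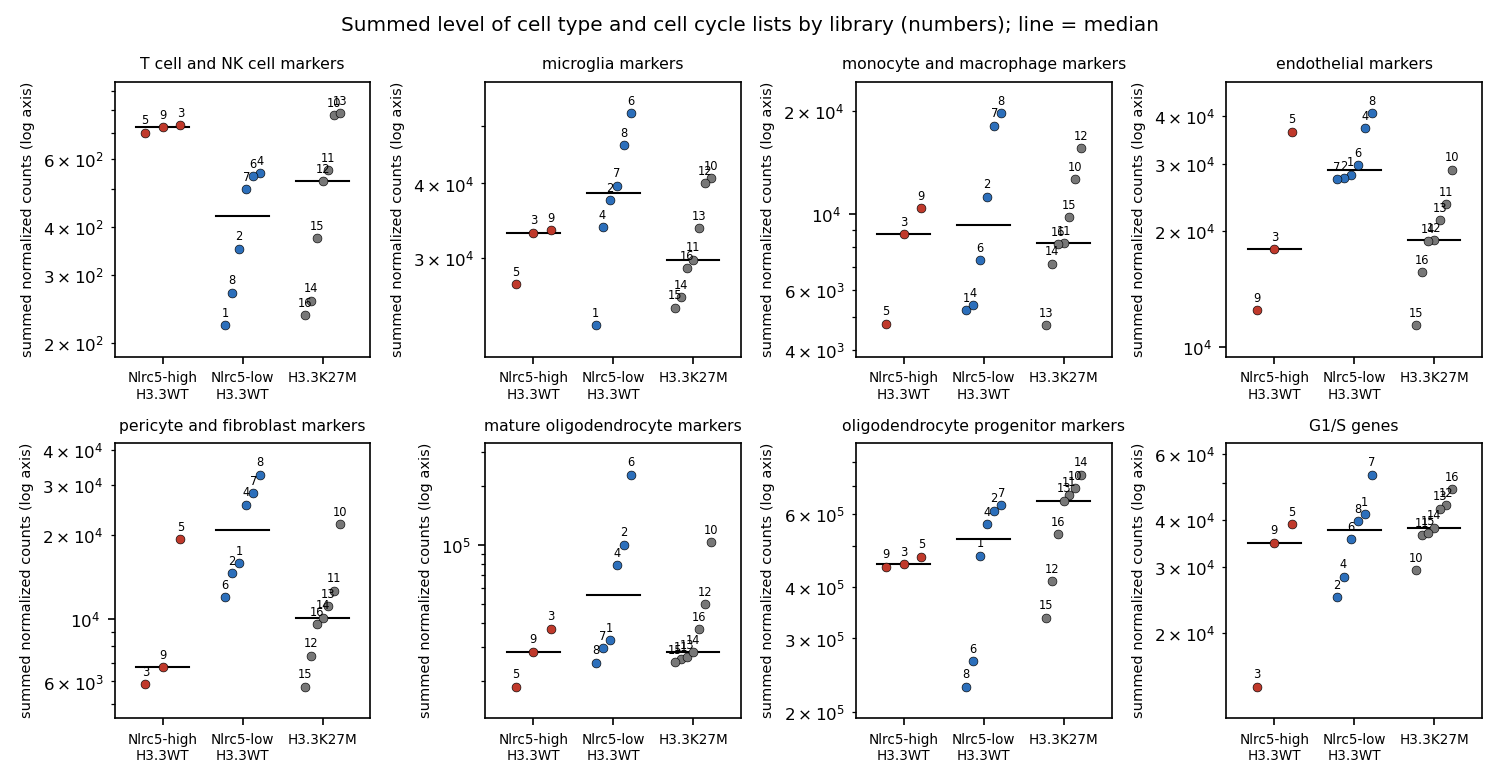
Summed normalized counts (log axis) of 8 lists in each library, numbered, with Nlrc5-high H3.3WT left, Nlrc5-low H3.3WT in the middle and H3.3K27M right; lines are medians. The T and NK cell sums of the Nlrc5-high libraries (701 to 732) lay above all Nlrc5-low libraries, whereas the sums of all the other lists shown overlapped.

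Other genes with the smallest p on the lower side did not pass in the main limma fit. DESeq2 called A330102I10Rik, Nr2e1, Car3, Gabra2, Lpl and 9330102E08Rik lower. With 1 library left out, limma called Car2 lower without library 3 and Nr2e1 lower without library 4. A330102I10Rik, a gene without an established role, had 15.2, 22.1 and 46.3 in Nlrc5-high, against 123 to 186 with a median of 152 in Nlrc5-low libraries (-2.54 ± 0.44, limma adjusted p = 0.115). Nr2e1, encoding the neural stem cell receptor TLX, had 8.93, 12.9 and 23.7, against 23.7 to 572 with a median of 407 (-4.15 ± 0.89, limma adjusted p = 0.288); Nlrc5-low library 4 matched the high class while the other 5 held at least 318. The carbonic anhydrase gene Car3 had 8.93, 16.6 and 8.23, against 42.4 to 161 with a median of 81.4 (-2.76 ± 0.57, limma adjusted p = 0.235), and its relative Car2 5512, 1102 and 796, against 3841 to 8891 with a median of 7307 (limma adjusted p = 0.578). Chst7, a sulfotransferase gene, Gabra2, a GABA receptor subunit gene, Lpl, the lipoprotein lipase gene, and 9330102E08Rik differed by -2.04, -1.47, -1.70 and -1.65. In these 4 the classes did not overlap, as held in this direction for 0.686% of genes tested.

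Growth and hypoxia lists held no call. Of 17 G1/S genes 0 were positive (median -0.39, 0 passed), and Mki67, the proliferation marker, had 3733, 8093 and 9192 in Nlrc5-high, against 5833 to 12369.8 with a median of 8196 in Nlrc5-low libraries. Library 3 held the lowest G1/S sum of all 16 libraries, 14443, and the 2 lists of cell cycle genes had medians of 0.06 (G1/S) and 0.14 (G2/M) without it. All 14 hypoxia and glycolysis genes were negative (median -0.77, 0 passed), with Egln3, an oxygen-sensing hydroxylase gene, at 500.2, 1115 and 501, against 729 to 6516 with a median of 1579. Pdgfra, which encodes the PDGFA receptor, overlapped widely, at 92519, 75900.5 and 110165, against 31738 to 188416 with a median of 86701. Pdgfa, whose coding sequence the virus carries, had 31523, 44796 and 28712, against 17400.0 to 27729 with a median of 22146 (0.66 ± 0.24, limma adjusted p = 0.998), without overlap and without passing.

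Whether genes followed Nlrc5 in libraries that the rule did not use was asked in the 7 H3.3K27M libraries, as a slope in log2 units per log2 unit of Nlrc5. No gene passed after adjustment: limma called 0 of 15006 in either direction, with 904 positive (6.02%) and 804 negative slopes (5.36%) at an unadjusted p under 0.05, and edgeR called 0, with 820 and 793. The 9 genes called in H3.3WT all had positive slopes here, 8 of them at an unadjusted p under 0.05, with values of 0.82 to 1.35 and a median of 1.02; over all genes 50.1% of slopes were positive and the median was 0.00. H2-Q4 had a slope of 1.35 ± 0.28 (SE, limma adjusted p = 0.315), H2-T10 1.03 ± 0.24 (limma adjusted p = 0.329) and H2-K1 1.07 ± 0.32 (limma adjusted p = 0.335). Psmb9 had 0.82 ± 0.42 (limma adjusted p = 0.492). Leaving out each H3.3K27M library in turn kept all 9 slopes positive, between 0.62 and 1.57, with 7 to 9 at an unadjusted p under 0.05.

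The same lists were read in those libraries. Class I chains had positive slopes in 13 of 15 genes (7 at an unadjusted p under 0.05, median 0.91), and peptide supply genes in 12 of 13 (7, median 0.74). Class II genes had positive slopes in 11 of 11 (9, median 1.35), with H2-DMa at 1.43 ± 0.29 (limma adjusted p = 0.315), and GTPases in 15 of 15 (12, median 1.08), with Gbp4 at 2.25 ± 0.54 (limma adjusted p = 0.329). The partner genes had 1 positive slope of 8 (median -0.25), with Creb1 at -0.55 ± 0.16 (limma adjusted p = 0.335). Other lists had positive slopes there as well: mature oligodendrocyte markers had a median slope of 1.71 and neuron markers of 1.37, against high minus low medians of -1.06 and 0.62 in H3.3WT. Xist had a slope of 6.94 (limma adjusted p = 0.418) in H3.3K27M and a negative difference in H3.3WT, so sex ran with Nlrc5 in opposite directions in the 2 groups. Without library 16, the lowest in Nlrc5, genes at an unadjusted p under 0.05 with positive slopes dropped to 373, and class I chains had 8 such genes. Without it the median slope was 2.14 for class II genes and 1.78 for GTPases.

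A correlation with Nlrc5 of the 9 genes was also taken within the 7 H3.3K27M libraries, after the calls were seen. Pearson's r was 0.56 to 0.90 and Spearman's rho 0.75 to 0.96 (exact two-sided permutation p = 0.00714 to 0.197 for r and 0.00278 to 0.0663 for rho). Adjusted over the 18 relations computed, the smallest p was 0.05 for each by the exact permutation test, and none was under 0.05. Without the 2 libraries farthest from the median of Nlrc5 the r was 0.34 to 0.89. The other 9 relations, within the 6 Nlrc5-low libraries, use values that formed the class and are not read.

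No difference in slope between H3.3WT and H3.3K27M libraries passed adjustment. In 1 fit over all 16 libraries limma called 0 of 15006 interactions (506 higher and 514 lower in H3.3WT at an unadjusted p under 0.05, or 3.37% and 3.43%, together 6.8%), and edgeR called 0 (511 and 497). The smallest unadjusted p among MHC genes named here was that of H2-DMa, with a slope difference, H3.3WT minus H3.3K27M, of -1.03 (limma adjusted p = 0.72). The slope differences of H2-K1, Tap1 and Psmb9 were -0.30, -0.23 and -0.03 (limma adjusted p = 0.853, 0.892 and 0.989).

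Levels in H3.3K27M libraries set the scale for the split. Their H2-K1 values ran from 19709 to 83556 with a median of 34915, Tap1 from 2716 to 8778 with a median of 3567, H2-Ab1 from 1646 to 11923 with a median of 6294 and Igtp from 2488 to 13069 with a median of 5762, spanning the space between the classes of H3.3WT. All 7 H3.3K27M libraries exceeded all 6 Nlrc5-low libraries in 6 of the 9 called genes, in 4 of 15 class I chain genes, in 7 of 15 GTPases and in 0 of 11 class II genes, and so did 0.34% of genes tested. The genes most like Nlrc5 across the 7 H3.3K27M libraries, by the highest Pearson r of log2 values and with no test, were Ccne1 (0.98), Chrnb1 (0.97), Trim17 (0.97), Tnni3 (0.97) and Gm12216 (0.97). None of these 5 is an MHC or interferon gene of the lists, and their log2 differences between the Nlrc5 classes of H3.3WT were -0.21, -0.63, -1.05, 0.77 and 1.38.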

How the data were processed

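Per the labels' protocols, bulk tumour RNA gave single reads of 50 bp; STAR 2.7, HTSeq, DESeq2 and mm10 are named in the submitters' processing notes, and their settings, strand included, were not given in the sources used here. The deposited signal is a normalized count: the authors divided read counts by 1 size factor per library, and 100% of values came back as whole reads within 0.01 reads. The authors also deposited a log2 fold change, a score (Wald statistic) and a p-value for libraries 10 to 16 over 1 to 9, which were not used. Libraries were assigned to H3.3WT (1 to 9) and H3.3K27M (10 to 16) by the table's group means and the group sizes of the labels; they are not tied to named samples. Of 23563 lines 1 was emptied and 208 repeated an identifier, leaving 23355 genes. Depth was 11439144 to 41730692 reads, and floors and intervals would cover counting error only. Every pair of libraries within H3.3WT and within H3.3K27M differed by far more than sampling noise (lowest chi-square per degree of freedom 127.7).

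Values were tested as log2(value + 1) with limma 3.58.1 with an intensity trend (R 4.3.3), two-sided and adjusted by Benjamini-Hochberg over 15006 genes that reached 10 normalized counts in 7 or more of 16 libraries, at 0.05; fold changes of low genes are understated on this scale. The comparison used the 9 H3.3WT libraries, the slope the 7 H3.3K27M libraries and the interaction all 16. edgeR 4.0.16 and DESeq2 1.42.0 on the recovered reads were alternatives; edgeR called 12 genes. Other alternatives were scaling, pseudocount, filter, voom weights, Xist, exon length, GC content and left-out libraries. Scripts were tested on simulated data. The members and the 33 gene lists were chosen with earlier results of these data known. Named genes were the 15 higher and 10 lower with the smallest p, up to 4 per list with the smallest p, a fixed set of presentation, interferon and cell markers, and the 5 most like Nlrc5 in H3.3K27M; other names were added after their values were seen. Promoter sequences and their windows are RefSeq's, GRCm38.p6, and gene positions are those the authors deposited, so the 2 can differ. A few genes of the naming rule are not reported here.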

Additional observations from a re-analysis of the deposited data

Results flagged for a closer look

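In 4 of 214 groups of libraries examined (1.87%), 1 library stood far from the others of its class by Dixon's test; chance flags about 1 in 20 groups. Nr2e1 was at 23.7 normalized counts in Nlrc5-low library 4, against 318 to 572 in the other 5 Nlrc5-low libraries. Oasl2 was at 2123 in Nlrc5-low library 7, against 946 to 1181 in the others. Nfya was at 1290.3 in H3.3K27M library 12, against 2397 to 3524 in the others, and Icam1, an adhesion molecule gene, was at 199.6 in H3.3K27M library 16, against 608 to 696 in the others.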

How the results depend on the processing

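Against 9 genes called higher and 0 lower by limma, DESeq2 called 55 higher and 15 lower. The slope on log2 Nlrc5 in place of the split called 12 higher genes, 8 of the 9 among them, and 1 lower gene. Its added higher genes were Psmb8, H2-Aa, H2-Ab1 and Igtp. Xist as a covariate, or the removal of libraries 6 and 8, left 0 higher. Leaving out each H3.3WT library in turn gave 0 to 14 higher and 0 to 1 lower calls; fewer samples enter these fits. TMM scaling, pseudocounts of 0.5 and 5, both other filters, voom weights, all 16 libraries, length and GC trends and edgeR gave 8 to 12 higher calls. The 9 genes were each called in 12 to 16 of 23 settings, with a highest adjusted p of 0.408 by limma or its alternatives. Ptprc turned negative with edgeR (-0.064), DESeq2 (-0.075) and the length trend (-0.056); without 1 library it ran from -0.17 to 0.21, negative without library 1, 4, 5 or 9. Pdgfra turned negative with edgeR (-0.021), DESeq2 (-0.026) and without libraries 6 and 8 (-0.32), and ran from -0.0026 to 0.51 without 1 library, negative without library 8. Mki67 ran from -0.59 to 0.057, positive without library 3; the cause was not tested. Of 726 list medians 716 moved by less than 1 SD, but 57 changed sign; the median ran from -1.08 to 1.49 for neuron, -0.60 to 0.84 for astrocyte and -1.13 to 0.18 for neutrophil markers, -0.52 to 0.98 for immediate early and -0.61 to 0.29 for mesenchymal genes. With Xist as a covariate the mature oligodendrocyte median was -2.74. Slopes in H3.3K27M libraries and interactions had 0 calls under each alternative run. No paired analysis was possible because the comparison lies within H3.3WT and the columns carry no replicate numbers of the labels. Depth limits T and NK cell genes and Ifng most, with values near or under 10 normalized counts.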

Other observations

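Some genes outside the lists, chosen after their values were seen, did not pass by limma. DESeq2's Wald test called Casp1, Uba7, Serpina3f and Batf2 of them higher. Casp1, the inflammatory caspase gene, had 1167, 758 and 1447 normalized counts in Nlrc5-high libraries 3, 5 and 9, against 121 to 358 with a median of 317 in Nlrc5-low libraries (2.09 ± 0.41 on the log2 scale, limma adjusted p = 0.168). Uba7, whose product activates ISG15, had 1157, 634 and 576, against 175 to 358 with a median of 255 (1.57 ± 0.34, limma adjusted p = 0.301). Serpina3f, a serpin gene, had 427, 58.0 and 857, against 2.84 to 34.2 with a median of 24.7 (4.06 ± 0.94, limma adjusted p = 0.4). Classes were apart in these 3 genes, as in 1.03% of genes tested. Batf2, a transcription factor gene, overlapped, with 286, 34.1 and 522, against 18.03 to 59.7 with a median of 24.5 (2.61 ± 0.78, limma adjusted p = 0.998). The non-coding gene 9330175E14Rik, upstream of Nlrc5 on chromosome 8, had 319.8, 61.7 and 165, against 13.01 to 70.3 with a median of 39.8 (2.00 ± 0.63, limma adjusted p = 0.998). It was called in 0 of 23 settings, DESeq2 included.

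The other lists held no call by limma or DESeq2, and the sign of most of their medians turned in at least 1 alternative. Positive differences were seen in 15 of 16 inflammatory cytokine and NF-kB genes (median 0.55), 12 of 15 immediate early genes (0.31), 12 of 14 neuron markers (0.62), 8 of 10 astrocyte markers (0.22), 6 of 7 dendritic cell markers (0.19) and 5 of 12 PRC2 and H3K27 enzyme genes (-0.04). They were seen in 4 of 14 mesenchymal glioma genes (-0.30), 2 of 5 B cell markers (-0.06), 0 of 6 neutrophil markers (-0.66) and 1 of 5 haemoglobin genes (-0.39). The haemoglobin sum ran from 2622 to 114582 in Nlrc5-high and from 233 to 455951 in Nlrc5-low libraries.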
